A study of Mus musculus with 4 samples.

Results

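The genes described here are 10 heat shock proteins of the cytosol and the mitochondrion, chosen by name: Hspa1a, Hspa1b, Hspa8, Hspa9, Hsp90aa1, Hsp90ab1, Hspd1, Hspe1, Hsph1 and Dnajb1. They are 10 of the 11489 genes in the deposited table of mouse ileum, where the small intestine ends, and 21 of its 21160 transcripts. The table gives FPKM, fragments scaled by transcript length and sequencing depth, and FPKM were summed over the transcripts of a gene. All 10 passed the minimum mean of 1 FPKM, as did 11103 genes in all. The donors were wild-type C57BL/6J mice aged 8 weeks. A first group received vehicle, labelled DMSO, and the other received 40 mg/kg pregnenolone-16α-carbonitrile (PCN) in 3 intraperitoneal injections spaced 8 h apart. Ileum was collected 8 h after the last injection, and each group had 2 libraries of total RNA. PCN is a synthetic steroid agonist of pregnane X receptor (PXR, encoded by Nr1i2), which in mice senses foreign compounds and switches on genes of drug metabolism. The study's supplementary methods give DMSO and corn oil as the solvent. No label says that every library is a separate mouse, so the p-values below measure only the spread between these samples. The study sequenced such libraries to screen for genes regulated by PXR, and its comparison of PCN with vehicle is read here for general chaperones. None of the 10 passed the test, and the 8 that averaged 10 FPKM or more had log2 fold changes between -0.00 and 0.15.

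Heat shock proteins are chaperones, which bind unfolded stretches of other proteins and help them fold, assemble or be degraded. Hsp70 proteins bind and release their clients in a cycle driven by ATP, J proteins load the client, and nucleotide exchange factors set it free. Hsp90 takes over partly folded clients, among them steroid receptors and kinases, and Hspd1 with its lid Hspe1 forms a closed chamber in the mitochondrion. Under heat or other protein damage, heat shock factor 1 (HSF1, encoded by Hsf1) binds heat shock elements in the promoters of many of these genes and induces them, while constitutive members such as Hspa8 are abundant in unstressed tissue.

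FPKM summed to between 481925 and 550832 per library, and the read depth was unknown. Vehicle replicate 2 stood apart: alpha-defensin genes, antimicrobial products of Paneth cells, took 13.3% of its FPKM and 5.75% to 6.3% in the other 3 libraries. Among them Defa24 was listed at 32500 FPKM in vehicle replicate 2 and at 0 in the other 3 libraries. Such a 0 can be a failed estimate. Defa22 was at 11600 and 12800 FPKM with vehicle and at 13200 and 11100 FPKM with PCN, so the excess was not common to the alpha-defensins. The 12 smooth muscle markers summed to 829 FPKM in vehicle replicate 2, against 416 in vehicle replicate 1, 235 in PCN replicate 1 and 292 in PCN replicate 2. Ileal markers were present in all libraries, among them Fabp6, the ileal bile acid binding protein, at 8060 and 6760 FPKM with vehicle and at 4230 and 3650 FPKM with PCN (log2 fold change -0.91 ± 0.13, limma, adjusted p = 0.109). Of 5 ileal enterocyte markers 3 were lower with PCN at an unadjusted p under 0.05, beside 9.36% of all tested genes in either direction. None passed the adjusted threshold. The part of this in the members' values was not tested. All 11 PXR targets listed had positive log2 fold changes, but Gsta1, a glutathione transferase, was the only one to pass the adjusted threshold. At an unadjusted p under 0.05 (limma) 9 of the 11 were higher, beside 9.36% of all tested genes in either direction. Both PCN libraries were above both vehicle libraries in 10 of the 11, beside 21.1% of all genes. Cyp3a11, a cytochrome P450 used as the standard PXR target, was at 26.1 and 14.7 FPKM in vehicle replicates 1 and 2 and at 163 and 214 FPKM in PCN replicates 1 and 2 (limma, log2 fold change 3.19 ± 0.29 SE, Benjamini-Hochberg adjusted p = 0.064). In bulk tissue, fewer cells of a type and less RNA per cell cannot be told apart.

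The members differed widely in level. In the order of their mean over the 4 libraries they were Hspa8 at 346 FPKM, Hsp90ab1 at 318, Hspe1 at 136, Hspd1 at 103, Hspa9 at 77.9, Hsp90aa1 at 70.1, Dnajb1 at 23.5, Hsph1 at 13.2, Hspa1b at 5.06 and Hspa1a at 1.51. Each gene was higher than the next in all 4 libraries, as the plot of levels shows. The ranges of neighbours overlapped only for Hspa8 and Hsp90ab1 and for Hspa9 and Hsp90aa1, whose means were 1.09-fold and 1.11-fold apart. Together the 10 genes took 0.183% to 0.235% of all FPKM, and the lowest share was in vehicle replicate 2. Hspa8 made up 30.9% to 32.7% of the members' sum and Hsp90ab1 27.9% to 30.3%.

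**Figure D1:**
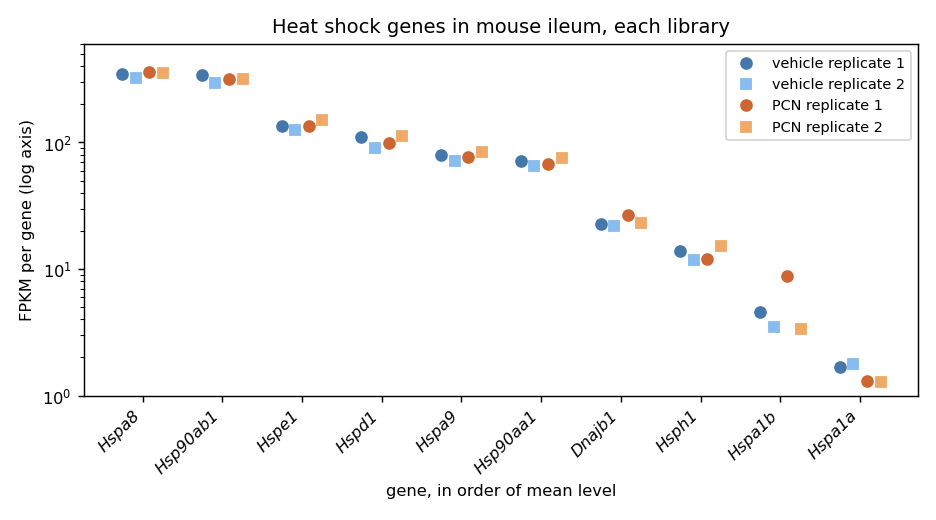
FPKM per gene (vertical log axis) of the 10 heat shock genes, in order of their mean level; each point is 1 library, blue for vehicle and orange for PCN, a circle for replicate 1 and a square for replicate 2. The 4 points lie close together for every gene but Hspa1b, where PCN replicate 1 (8.8 FPKM) stands above the other 3 libraries (3.34 to 4.6 FPKM).

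Hspa8 encodes Hsc70, the constitutive Hsp70 of the cytosol. It was at 348 and 322 FPKM in vehicle replicates 1 and 2 and at 362 and 352 FPKM in PCN replicates 1 and 2. Both PCN libraries were above both vehicle libraries, by a margin smaller than the gap between the vehicle libraries. The log2 fold change was 0.09 ± 0.07 (SE), with a 95% interval from 0.942-fold to 1.21-fold (limma, Benjamini-Hochberg adjusted p = 0.731). The gene lies on the plus strand at chr9:40800984-40810087 and hosts 3 snoRNA genes (Snord14c, Snord14d and Snord14e) in GENCODE M21.

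Hspa1a and Hspa1b encode the stress-inducible Hsp70 proteins. They lie next to each other on the minus strand, at chr17:34969190-34972156 and chr17:34956436-34959238, 9.95 kb apart, and each consists of 1 exon. Their coding sequences were identical at 99.4% of aligned positions, with a longest identical run of 638 bases, whereas Hspa1a and Hspa8 shared 73.9% with a longest run of 22. Reads from such stretches fit both copies, so the split of FPKM between Hspa1a and Hspa1b is uncertain. The first 60 coding bases, from GENCODE M21 transcripts on GRCm38, are shown to let the 3 genes be compared. The copies did not differ there, and capitals in Hspa8 mark the 17 bases at which it departs from Hspa1a.
Hspa1a and Hspa1b: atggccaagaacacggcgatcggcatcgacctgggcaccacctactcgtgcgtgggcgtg
Hspa8: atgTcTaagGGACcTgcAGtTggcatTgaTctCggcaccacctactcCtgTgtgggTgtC

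Hspa1b was at 4.6 and 3.48 FPKM in vehicle replicates 1 and 2 and at 8.8 and 3.34 FPKM in PCN replicates 1 and 2. The PCN libraries held both the highest and the lowest value, so the groups overlapped. The log2 fold change was 0.38 ± 0.41 (SE), with a 95% interval from 0.625-fold to 2.71-fold (limma, adjusted p = 0.821). It was -0.21 without PCN replicate 1 and 0.97 without PCN replicate 2, where the adjusted p was 0.668. Hspa1a was at 1.69 and 1.77 FPKM with vehicle and at 1.3 and 1.29 FPKM with PCN. Both PCN libraries were below both vehicle libraries, near the minimum of 1 FPKM set for testing. Its log2 fold change was -0.25 ± 0.19 (limma, adjusted p = 0.731). A protein-coding gene, Gm20481, overlaps Hspa1a on the opposite strand in GENCODE M21, and whether reads were assigned by strand is unknown. Summed as 1 gene, the copies gave 6.3 and 5.25 FPKM with vehicle and 10.1 and 4.63 FPKM with PCN, and a log2 fold change of 0.23. Relative to Hspa8 the inducible pair stood at 1.81% and 1.63% in the vehicle libraries and at 2.79% and 1.32% in the PCN libraries.

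The high value of Hspa1b in PCN replicate 1 came from a single deposited transcript. Hspa1b had 2 transcripts in the table, both assigned to the same reference transcript. The more abundant gave 4.6 and 3.48 FPKM with vehicle and 4.46 and 3.34 FPKM with PCN. On this transcript the PCN values lay within or just below the vehicle range. The other was listed at 0 in 3 libraries and at 4.33 FPKM in PCN replicate 1, or 49.3% of the gene there. Its running number in the assembly lay more than 1000 from that of the first. Of the 24 transcripts nearest to it in number, 24 matched reference transcripts on the plus strand and 0 on the minus strand, although Hspa1b is on the minus strand. For the more abundant transcript these counts were 11 and 13. Without transcripts numbered this far from their gene's most abundant one, a choice made after these values were seen, the log2 fold change of Hspa1b was -0.04. What such transcripts are was not tested.

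Dnajb1, the J protein that delivers clients to cytosolic Hsp70 and is itself induced by heat, had a transcript of the same kind. The gene was at 22.6 and 21.8 FPKM with vehicle and at 26.5 and 23.2 FPKM with PCN. Both PCN libraries were above both vehicle libraries (log2 fold change 0.15 ± 0.11 SE, 95% interval 0.92-fold to 1.34-fold, limma, adjusted p = 0.716). A transcript numbered far from the gene was listed at 0 in both vehicle libraries and gave 2.93 and 1.6 FPKM in PCN replicates 1 and 2. In both PCN libraries exactly the same value was also listed for a transcript of another gene. The remaining transcript was at 22.6 and 21.8 FPKM with vehicle and at 23.6 and 21.6 FPKM with PCN. On it alone the groups overlapped, and the log2 fold change was 0.02. Hspa8, Hsp90aa1 and Hsph1 each had 1 further transcript numbered far from the gene, at 0.202 to 3.54 FPKM and above 0 in every library. Most transcripts nearest to these in number were on the strand opposite to the gene, but for Hsph1 9 of 24 were on its own strand. In all, transcripts numbered far from the gene made up 5 of the members' 21 transcripts, beside 17.7% of all transcripts in the table.

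**Figure D2:**
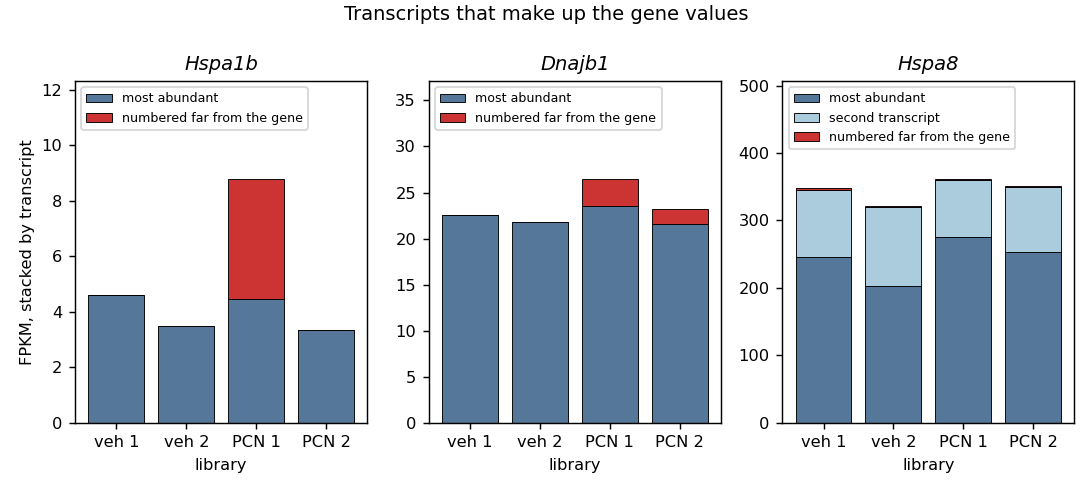
FPKM (vertical axis, from 0) of Hspa1b, Dnajb1 and Hspa8 in each library, stacked by deposited transcript: dark blue the most abundant, light blue the next, red a transcript numbered far from the gene. In Hspa1b the red part is in PCN replicate 1 only (4.33 FPKM), in Dnajb1 in both PCN libraries, and in Hspa8 it is 1.43 to 2.23 FPKM in the 4 libraries.

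Within Hspa8 the deposited transcripts took different shares. The full-length coding transcript gave 245 and 202 FPKM in vehicle replicates 1 and 2 and 275 and 254 FPKM in PCN replicates 1 and 2. The PCN libraries were above both vehicle libraries, with vehicle replicate 2 the lowest. A short transcript of 598 bases, which GENCODE M21 lists as processed transcript with no coding part, gave 100 and 118 FPKM with vehicle and 84.7 and 96.4 FPKM with PCN. It was lower in both PCN libraries and made up 28.8% and 36.7% of the gene with vehicle and 23.4% and 27.4% with PCN. Tested on its own, the full-length transcript had a log2 fold change of 0.25 and did not pass the threshold. Estimates of overlapping transcripts of 1 gene trade reads with each other, so the values of the long and the short transcript are not independent measurements.

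Hsph1, also called Hsp110, is the nucleotide exchange factor that resets cytosolic Hsp70. It was at 13.9 and 11.8 FPKM with vehicle and at 12 and 15.1 FPKM with PCN. The groups overlapped in part, with the lowest value in vehicle replicate 2 and the highest in PCN replicate 2, and the log2 fold change was 0.07 ± 0.16 (SE), with a 95% interval from 0.792-fold to 1.39-fold (limma, adjusted p = 0.927). Hspa8 was above Dnajb1 and Hsph1 in every library. The 20 J proteins listed as cytosolic, tested or not, summed to 332 to 360 FPKM. Not all of these are confined to the cytosol, so the sum is not that of the partners of Hspa8. The ratio of Hspa8 to Dnajb1 was 15.4 and 14.7 with vehicle and 13.7 and 15.2 with PCN, and the ratio of Hspa8 to Hsph1 ranged from 23.3 to 30.1. All these ratios overlapped between the groups.

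The cytosolic Hsp90 proteins were represented by a constitutive gene, Hsp90ab1, and the heat-inducible Hsp90aa1. Hsp90ab1 was at 341 and 296 FPKM in vehicle replicates 1 and 2 and at 318 and 316 FPKM in PCN replicates 1 and 2. Both PCN values lay between the vehicle values, and the log2 fold change was -0.00 ± 0.09 (SE; 95% interval 0.853-fold to 1.16-fold, limma, adjusted p = 0.991). Hsp90aa1 was at 71.8 and 65.1 FPKM with vehicle and at 68 and 75.4 FPKM with PCN. These groups overlapped too (log2 fold change 0.07 ± 0.09 SE, limma, adjusted p = 0.865). Hsp90aa1 made up 17.4% and 18% of the pair with vehicle and 17.6% and 19.3% with PCN. Their coding sequences shared 75.5% of aligned positions with a longest identical run of 33 bases, so these genes can be told apart better than the Hspa1 copies. Within Hsp90aa1 the most abundant transcript was a smaller share of the gene in both PCN libraries than in both vehicle libraries, at 62.5% and 67.2% with vehicle and 57.7% and 55.3% with PCN. Tested on its own, this transcript had a log2 fold change of -0.13 and did not pass the threshold. As in Hspa8, overlapping transcripts trade reads, and the shares were not tested.

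In the mitochondrion, Hspa9 (mortalin) pulls proteins through the inner membrane and folds them. It was at 79.3 and 70.9 FPKM with vehicle and at 77.1 and 84.2 FPKM with PCN. The groups overlapped, and the log2 fold change was 0.10 ± 0.09 (SE; limma, adjusted p = 0.78). Hspd1 (Hsp60), the chamber, was at 110 and 90.4 FPKM with vehicle and at 99.3 and 112 FPKM with PCN. It overlapped as well, at 0.08 ± 0.12 (limma, adjusted p = 0.877). Hspe1 (Hsp10), the lid of that chamber, was at 134 and 125 FPKM with vehicle and at 134 and 151 FPKM with PCN. PCN replicate 1 exceeded vehicle replicate 1 only in the decimals, and the log2 fold change was 0.13 ± 0.09 (95% interval 0.939-fold to 1.28-fold, limma, adjusted p = 0.701). The ratio of Hspd1 to Hspe1 was 0.825 and 0.721 with vehicle and 0.743 and 0.744 with PCN, so the PCN values lay within the vehicle range. The genes stand head to head on chromosome 1 and overlap by 112 bases at their starts in GENCODE M21, and the files do not say whether reads were assigned by strand.

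Promoter windows from 250 bases before to 50 bases after the RefSeq start (GRCm38.p6) were found for 6 of the 10 members, 9 windows in all. They are described because heat shock elements are the sites by which HSF1 reaches these genes. The shortest form, repeats of GAA facing each other (GAANNTTC or TTCNNGAA, which read the same on both strands), was in a window of 5 members: Hspa1a, Hspa1b, Hspd1, Hspe1 and Hsph1. These letters are in 15.1% of the 32851 promoters of the table. A longer form with 3 alternating units, which contains the shorter, was in Hspd1, Hspe1 and Hsph1, and in 0.603% of all promoters. Neither Dnajb1 window held either. The site AGNTCA, bound in pairs by PXR with its partner RXR and searched as DR3, DR4 or ER6, was in none of the 9 windows, and in 0.07%, 0.125% and 0.0304% of all promoters. A match is a description of letters, and no match says only that the letters are not in this window. Shown are the 120 bases before the start of Hspa1a (chr17:34972157-34972276, minus strand) and Hspa1b (chr17:34959239-34959358, minus strand), which differed at 1 base, and 30 bases around the elements upstream of Hspe1 (chr1:55088053-55088082, plus strand), which also lie in a window of Hspd1 and inside an exon annotated by GENCODE M21. Capitals mark the heat shock element letters.
Hspa1a: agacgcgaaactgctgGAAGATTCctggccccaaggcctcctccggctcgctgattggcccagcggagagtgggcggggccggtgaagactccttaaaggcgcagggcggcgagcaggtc
Hspa1b: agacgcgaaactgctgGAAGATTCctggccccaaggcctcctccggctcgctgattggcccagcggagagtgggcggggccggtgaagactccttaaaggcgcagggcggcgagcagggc
Hspe1: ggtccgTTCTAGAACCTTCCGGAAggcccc

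**Figure D3:**
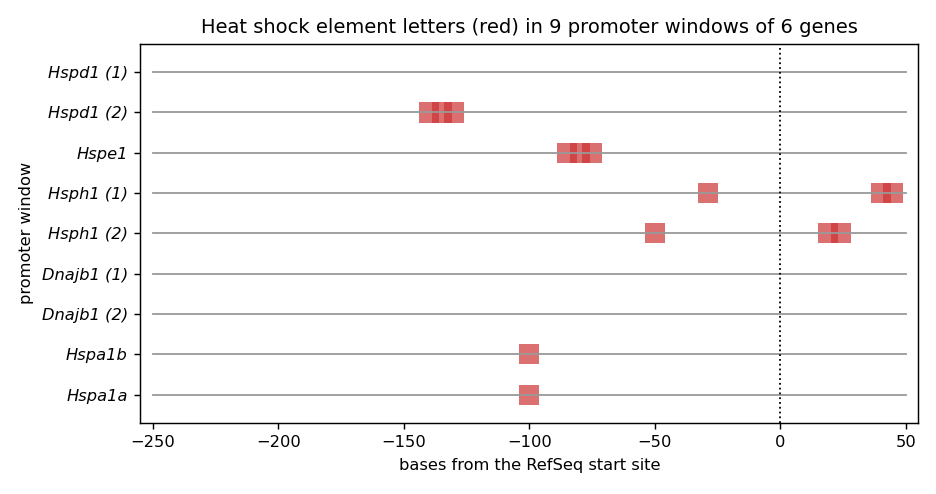
Heat shock element letters (red, 8 bases each) in the 9 promoter windows of 6 members; the horizontal axis gives bases from the RefSeq start site, and a number in brackets tells windows of 1 gene apart. Hspa1a and Hspa1b each hold 1 element with its first base at -104, and the elements of Hspe1 and of the second Hspd1 window are the same bases seen from either side.

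The members' comparison was set beside that of the whole table. At an adjusted p under 0.05 (limma, Benjamini-Hochberg over 11103 genes) 0 of the 10 were called, beside 0.135% of all tested genes, and at an unadjusted p under 0.05 the count was 0 as well, beside 9.36%. Both PCN libraries were above both vehicle libraries in 3 members (Hspa8, Hspe1 and Dnajb1), beside 21.1% of all genes. They were below both in 1 (Hspa1a), beside 19.1%. With 2 libraries a group an exact permutation test cannot go below a p of 0.33. The log2 fold change was positive in 8 of 10 members, beside 50.6% of all genes. Its median was 0.086 for the members and 0.003 for all tested genes. The log2 fold change was positive in 5 of 10 members without vehicle replicate 2 (median 0.01), in 5 without PCN replicate 2 (0.02), in 7 without PCN replicate 1 (0.11) and in 9 without vehicle replicate 1 (0.17). In each of these fits limma called 0 members. How large a change the intervals allow differed between members: the upper bound was 1.21-fold for Hspa8 and 2.71-fold for Hspa1b.

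**Figure D4:**
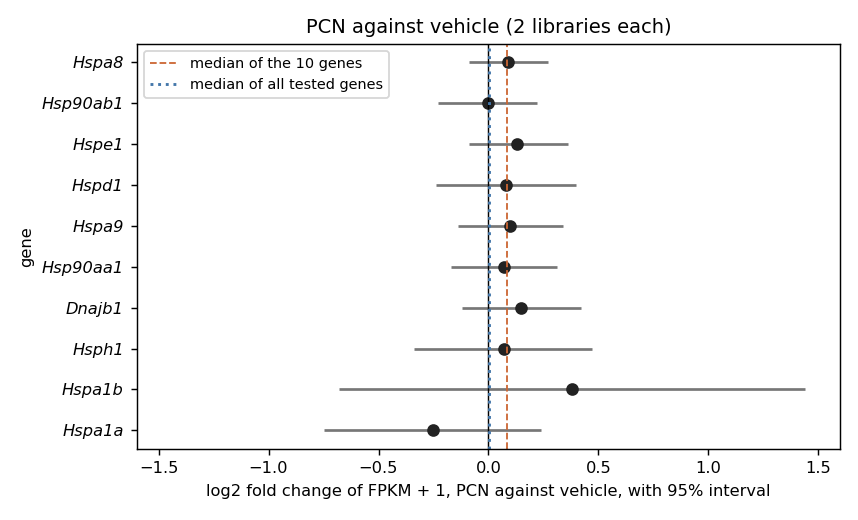
Log2 fold change of FPKM + 1 (horizontal axis), PCN against vehicle, for the 10 genes in order of level; points are limma estimates from 2 libraries a group and lines their 95% intervals. Every interval crosses 0, the dashed line at the members' median (0.086) is close to the dotted line at the median of all tested genes (0.003), and Hspa1b has the widest interval.

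Between libraries of a group, the members spread about as other genes did. Within the vehicle group the median absolute log2 difference was 0.148 for the members and 0.164 for all tested genes, and within the PCN group it was 0.159 and 0.146. The vehicle libraries were 0.5 or more apart on the log2 scale in 0 of 10 members, beside 12.9% of all genes, and the PCN libraries in 1 (Hspa1b, 1.17), beside 10.3%. The range over the 4 libraries had a median of 0.254 for the 8 members that averaged 10 FPKM or more, and of 0.269 for the 5301 genes of that level. Hspa8 was the steadiest at 0.17, and 14.8% of tested genes had a smaller range. Hspa1b was the widest at 1.17, above 93.7% of tested genes.

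A pattern by library was nevertheless shared. Vehicle replicate 2 was the lowest of the 4 libraries in 8 of 10 members, all but Hspa1a and Hspa1b, beside 34.2% of all genes. Centred on each gene's own mean, the members' median was 0.03 and -0.11 in vehicle replicates 1 and 2 and -0.02 and 0.07 in PCN replicates 1 and 2. Vehicle replicate 2 was also the library with the most smooth muscle and adipocyte RNA: 11 of 12 smooth muscle markers and 4 of 4 tested adipocyte markers were highest there. Smooth muscle markers had centred medians of 0.12 and 0.99 with vehicle and -0.65 and -0.37 with PCN. Adipocyte markers summed to 42.6 and 115 FPKM with vehicle and to 36.1 and 51.1 FPKM with PCN. When the score of smooth muscle genes entered the fit as a covariate, the members' median log2 fold change was -0.06 and 8 of 10 were negative. The score went along with treatment. In 10 of 12 smooth muscle markers both PCN libraries were below both vehicle libraries, beside 19.1% of all genes. With 4 libraries this fit separates the score from treatment poorly. The standard error was 0.14 for Hspa8, against 0.07 without the covariate, and 0.74 for Hspa1b, against 0.41. The part of tissue makeup in the members' values was not tested.

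**Figure D5:**
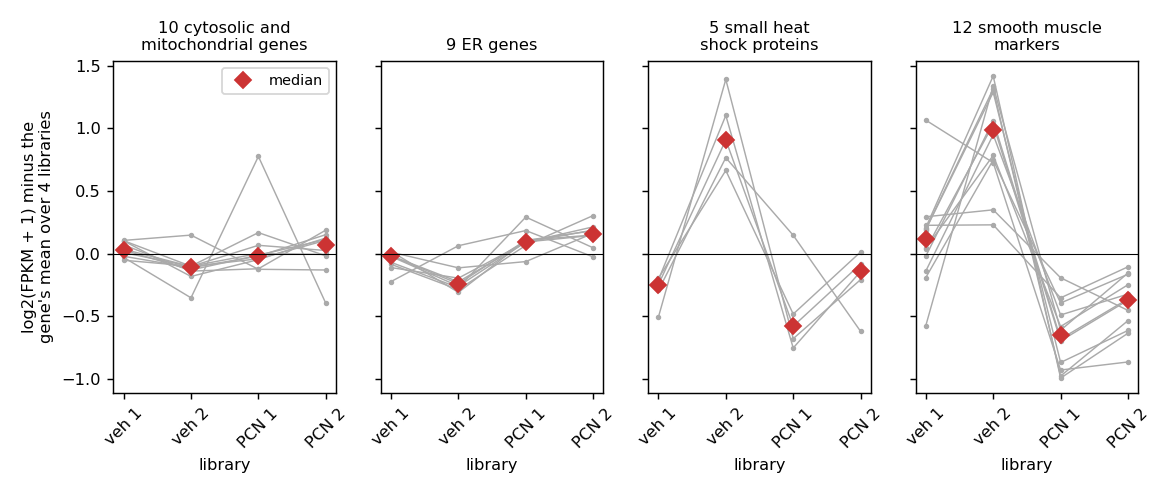
Log2(FPKM + 1) of each gene minus its mean over the 4 libraries (vertical axis), in 4 groups of genes; grey lines join the values of 1 gene, and red diamonds are the medians. In vehicle replicate 2 the members' median is -0.11 and that of the ER genes -0.24, while that of the small heat shock proteins is 0.91 and that of the smooth muscle markers 0.99.

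The partners of these chaperones were counted from lists of genes by role. Of 18 tested J proteins listed as cytosolic and 18 Hsp90 cochaperones, 0 were called by limma in either direction, with medians of 0.10 in both lists. At an unadjusted p under 0.05 the counts were 1 (Dnajb2, lower) and 0, beside 9.36% of all tested genes in either direction. Dnajb2, named here after its values were seen, was at 13.7 and 20.2 FPKM with vehicle and at 8.08 and 9.88 FPKM with PCN (log2 fold change -0.83 ± 0.21, limma, adjusted p = 0.319). Like the smooth muscle markers it was highest in vehicle replicate 2. Dnaja2, an abundant J protein, was at 54.4 and 53.3 FPKM with vehicle and at 58 and 56.8 FPKM with PCN. The prolyl isomerase Fkbp4, which links Hsp90 to steroid receptors, was at 100 and 84.6 FPKM with vehicle and at 98.4 and 103 FPKM with PCN, and Ptges3 (p23), which stabilises closed Hsp90, at 67.1 and 60.8 FPKM and at 72.9 and 74.3 FPKM. Vehicle replicate 2 was the lowest library in both, as it was in 14 of the 18 cochaperones, beside 34.2% of all genes. Of 10 nucleotide exchange factors 0 were called, and 1 had an unadjusted p under 0.05, beside 9.36% of all tested genes. This was Bag2, a factor that also inhibits the ubiquitin ligase Stub1, which was lower (log2 fold change -0.66, limma, adjusted p = 0.302). The median of the 10 was -0.02. Bag1, the most abundant, was at 112 and 117 FPKM with vehicle and at 121 and 114 FPKM with PCN. Of 13 tested subunits of TRiC, the chaperonin that folds actin and tubulin, and of prefoldin, which feeds it, 0 were called and 0 had an unadjusted p under 0.05 (median 0.08). Cct2, also an HSF1 target, was at 95.7 and 89.1 FPKM with vehicle and at 92.8 and 90.5 FPKM with PCN. Among 18 tested mitochondrial chaperones and proteases, members included, 0 were called (median 0.05). At an unadjusted p under 0.05 the count was 1, beside 9.36% of all tested genes. This was Dnaja3, the J protein that serves Hspa9, at 20.1 and 20 FPKM with vehicle and at 24.2 and 27.6 FPKM with PCN (log2 fold change 0.35 ± 0.10, limma, adjusted p = 0.397). Both PCN libraries were above both vehicle libraries, as in 21.1% of all genes. The proteases Afg3l2 and Yme1l1 were at 40.7 to 40.9 and 28.7 to 37.6 FPKM with vehicle and at 39.9 to 42.3 and 36.8 to 37 FPKM with PCN.

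The remaining cytosolic relatives of Hsp70 were low. Of 7 tested, 3 of them members, 0 were called, and at an unadjusted p under 0.05 the count was 0 (limma, median 0.03). Hspa12a was at 13.9 and 15.3 FPKM with vehicle and at 15.4 and 19.2 FPKM with PCN. Hspa14, which works at the ribosome, was at 14.1 and 13.9 FPKM with vehicle and at 13.8 and 15 FPKM with PCN.

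The targets of HSF1 were counted as a list of their own. Of 30 tested HSF1 targets, 9 of them members, 0 were called, 17 had positive and 13 negative log2 fold changes, and the median was 0.07. Ubb, a stress-induced ubiquitin gene, was at 314 and 312 FPKM with vehicle and at 339 and 329 FPKM with PCN (log2 fold change 0.09 ± 0.06, limma). Of 6 tested heat shock factors and regulators 0 were called, with a median of -0.20. Hsbp1, which binds HSF1, was at 62.8 and 62.4 FPKM with vehicle and at 59.6 and 58.1 FPKM with PCN. In both lists 1 gene had an unadjusted p under 0.05, beside 9.36% of all tested genes. This was Ier5, an HSF1 target that also feeds back on HSF1. It was at 22.3 and 19.3 FPKM with vehicle and at 15.8 and 16.5 FPKM with PCN, and it did not pass the adjusted threshold (log2 fold change -0.34 ± 0.11, limma, adjusted p = 0.461). Immediate early genes, which handling of tissue can induce, gave 0 calls among 11 tested with a median of -0.18, and at an unadjusted p under 0.05 the count was 0. Junb was at 62.9 and 62.3 FPKM with vehicle and at 65.8 and 60.5 FPKM with PCN.

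The small heat shock proteins, holdases that keep unfolding proteins soluble and are abundant in muscle, had their highest values in vehicle replicate 2, as most smooth muscle and all tested adipocyte markers did. All 5 tested were highest there and had negative log2 fold changes (median -0.66), and 0 were called by limma, with 0 at an unadjusted p under 0.05. Hspb1 (Hsp25) was at 12.7 and 33 FPKM in vehicle replicates 1 and 2 and at 8.39 and 13.3 FPKM in PCN replicates 1 and 2. Vehicle replicate 1 lay between the PCN values, so without vehicle replicate 2 the groups overlapped. Hspb6, which is typical of smooth muscle, was at 1.8 and 9.43 FPKM with vehicle and at 1.48 and 2.44 FPKM with PCN.

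Chaperones of the endoplasmic reticulum (ER) were the most similar set outside the cytosol and mitochondrion. The list held the Hsp70 and Hsp90 genes Hspa5, Hyou1, Hspa13 and Hsp90b1, the J proteins Dnajb9, Dnajb11, Dnajc3 and Dnajc10, and the exchange factor Sil1. All 9 had positive log2 fold changes, beside 50.6% of all tested genes. Their median was 0.28, beside 0.086 for the members and 0.003 for all tested genes, and the difference between the sets was not tested. Hspa5 (BiP), the ER Hsp70, was at 328 and 261 FPKM with vehicle and at 349 and 368 FPKM with PCN. Hsp90b1 (Grp94), the ER Hsp90, was at 279 and 242 FPKM with vehicle and at 301 and 313 FPKM with PCN. In both genes the PCN libraries were above both vehicle libraries, as in 7 of the 9, beside 21.1% of all genes. None passed the adjusted threshold (limma), and 5 had an unadjusted p under 0.05, beside 9.36% of all tested genes in either direction. These were Hsp90b1, Hspa13, Dnajb9, Dnajb11 and Hyou1, which had the highest log2 fold change (0.37 ± 0.12, limma, adjusted p = 0.457). Vehicle replicate 2 was the lowest library in 8 of the 9, beside 34.2% of all genes. The ratio of Hspa5 to Hspa8 was 0.944 and 0.812 with vehicle and 0.963 and 1.05 with PCN.

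Genes with a profile like that of Hspa1b, the most variable member, were sought among tested genes that averaged 10 FPKM or more, by the root mean square difference of centred log2 values over the 4 libraries. The 5 closest were Tle4 (0.04), Pi4kb (0.11), Mmp15 (0.13), BC025446 (0.14) and Igf2bp2 (0.15). That all 5 were highest in PCN replicate 1, as Hspa1b was, follows from how they were chosen and is no separate result. In Pi4kb, for example, PCN replicate 1 had 17.9 FPKM and the other libraries 8.48 to 9.15 FPKM. There, as in Mmp15 and Igf2bp2, a transcript numbered far from the gene held the excess: it gave 8.37 FPKM in PCN replicate 1 and was listed at 0 in the other 3 libraries. In Tle4 and BC025446 the excess was in transcripts numbered beside the gene. In the whole table, 215 transcripts were above 0 only in PCN replicate 1, and 85.6% of them were numbered far from their gene. The same share was 80.8% to 89.8% for transcripts above 0 only in another of the libraries.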

How the data were processed

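Total RNA of ileum was sequenced after library preparation with a SMARTER kit per the labels, which also gave groups and replicate numbers. The authors deposited FPKM, 1 value per transcript, and their table marks every transcript as protein-coding. The submitters' processing notes name mm10, and aligner and quantifier are not given in the sources used here. Supplementary methods for colon libraries, made with another kit, were not taken as the source. Depth is unknown, so no counting intervals are given, and an exact 0 can be a failed estimate.

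FPKM were summed per gene symbol, and genes averaging 1 FPKM or more entered limma (3.58.1, R 4.3.3) on log2(FPKM + 1) of the deposited values, with a mean-variance trend, no replicate block and Benjamini-Hochberg adjustment over 11103 genes (threshold 0.05). Fold changes are on that scale, which understates changes of low genes. The steps were tested on simulated data. Values with ± are log2 fold changes with standard errors, n = 2 per group. Members and gene lists were chosen with earlier results of these data known. Genes set to be named were the 10 members and the called genes of each list or else its 2 most abundant non-members. Added to these were the 5 genes most like the most variable member, and the PXR targets Cyp3a11 and Cyp2c55. Not all of them are printed, and for several lists only 1 of the 2 most abundant is given. Hspb6, Hyou1, Hspa13, Dnajb9, Dnajb11, Dnajb2, Bag2, Dnaja3 and the transcripts singled out were chosen after their values were seen. Of the 2 treatment checks, Cyp2c55 was at 59.4 and 27.3 FPKM with vehicle and 569 and 467 FPKM with PCN. The 11 marker lists (smooth muscle, epithelium, ileal enterocyte, fibroblast, leukocyte, Paneth, goblet, adipocyte, neuron and glia, red blood cell and immediate early genes) gave 0 calls. Coordinates are those of GENCODE M21 on the build of the table (the deposited locus had the same start and end for 3 members and another start or end for 7), promoters come from RefSeq, and coding identity was counted over global alignments (Biopython 1.88). Alternatives were other pseudocounts, filters, scalings, a replicate block, leaving out each library, a smooth muscle covariate, summing the Hspa1 copies, single transcripts and, added after the data were seen, leaving out far-numbered transcripts.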

Additional observations from a re-analysis of the deposited data

How the results depend on the processing

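The heat shock genes called numbered 0 in each direction under all 17 alternatives (limma), and 0 of 169 member values passed the threshold, so calls gave no measure of stability. With 2 libraries a group, only members with narrow intervals bound a change. Of the 169 values 19 had the other sign. With the smooth muscle covariate the log2 fold change was -0.04 for Hsp90aa1, -0.40 for Hspa1b, -0.05 for Hspa8, -0.04 for Hspa9, -0.19 for Hspd1 and -0.07 for Hsph1, and the members' median was -0.06. That covariate went along with treatment, and standard errors were larger in this fit, at 0.14 for Hspa8 and 0.74 for Hspa1b. Tested by transcript, Hsp90aa1 was at -0.13 and Hspa1b at -0.04, and without far-numbered transcripts (added after the data were seen) Hspa1b was at -0.04. With the same total in each library Hsp90ab1 was at 0.05, and the summed Hspa1 copies gave 0.23 in place of Hspa1a's -0.25. Leaving out each library gave -0.01 to 0.14 for Hsp90aa1, -0.11 to 0.10 for Hsp90ab1, -0.21 to 0.97 for Hspa1b, -0.06 to 0.22 for Hspd1 and -0.09 to 0.22 for Hsph1. The cause of these moves was not tested.

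Over all genes 9 were called higher and 6 lower. The counts were 34 and 22 at a minimum of 5 FPKM, 2 and 0 without a trend, 23 and 14 with the same total, 1 and 0 by transcript, 0 and 0 with the smooth muscle covariate, and 27 and 17 without far-numbered transcripts. At a pseudocount of 0.1, 5 were higher. Leaving out each library gave 0 to 8 higher and 0 to 12 lower, and only the fit that lacked vehicle replicate 1 made any call. With the replicate block 39 were higher and 21 lower. Same-numbered libraries correlated at 0.034 across genes in their deviations from the group means. With 2 libraries a group this value cannot decide whether the numbers pair the samples. The block called 0 members.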
